A study of Homo sapiens with 8 samples.

Results

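Ion channels and G protein coupled receptors are the membrane proteins through which a cell sets its ion gradients and reads outside signals. Channels let potassium, sodium, calcium or chloride pass down their gradients, and potassium channels in particular hold the membrane potential. G protein coupled receptors bind hormones, nucleotides, lipids or protons and pass the signal to G proteins, which act on adenylyl cyclase, phospholipase C and intracellular calcium. In a secretory epithelium such as the pancreatic duct, channels and receptors of this kind control fluid, bicarbonate and proton transport. Genes were taken by symbol from the list the authors deposited, using the prefixes of potassium, calcium, sodium, TRP and chloride channels, anoctamins, purinergic, glutamate, nicotinic, serotonin and adrenergic receptors, adhesion receptors and GPR-named genes. This gave 43 of 3666 genes, of which 26 encode channel subunits or channel proteins and 17 encode G protein coupled receptors. GPR89A and GPR89B carry a receptor name but encode a Golgi anion channel, and were counted with the channels. Serotonin receptors and pore-forming subunits of voltage-gated calcium channels were not analysed here.

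The cells were MIA PaCa-2, an established line from a human pancreatic ductal adenocarcinoma, labelled as wild type and without drug treatment. Both groups passed through the same sort, in which lactate was given briefly in the medium and washed out again. Fluorescence-activated sorting took the fraction with low permeability to lactic acid (PHLac-low) and the fraction with high permeability (PHLac-high), as a measure of metabolic rate, in 4 paired repeats with 1 library of each fraction. The cells grew in medium with 44 mM bicarbonate, 10% serum and 5% CO2, and all 8 samples are of this line. The labels do not say whether repeats were separate cultures, so p-values measure the spread between these samples only. In bulk RNA of this kind, fewer cells that express a gene and less RNA per cell cannot be told apart.

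Values are normalised counts, that is, reads per gene divided by 1 size factor per library. Reads in the listed genes numbered from 8979276 to 23176205 per library, and the deepest library was the PHLac-low library of repeat 3. Every listed gene had passed the authors' threshold between these same libraries, so tests of the same contrast describe the genes and are no independent evidence. With limma on log2(normalised count + 1) and the repeat as a block, 99.9% of all listed genes and all 43 of these genes had a Benjamini-Hochberg adjusted p at or under 0.05. Of the pancreatic carcinoma markers, 1 of 9 was listed, KRT19, at 14790 to 24031 normalised counts across the 8 libraries, and the others were not analysed here. Of 6 leukocyte markers, 3 were listed (PTPRC, CD68 and CD14), with a summed level of 1522 to 3403 in PHLac-low and 1591 to 5276 in PHLac-high. They went opposite ways, with log2 changes of -1.36 for PTPRC, 0.55 for CD68 and 0.47 for CD14. Of 8 fibroblast markers 1 was listed (COL1A1), at 83.4 to 191 and 60.8 to 126. None of 4 endothelial markers was listed. The part of other cell types in the results was not tested. Repeat 4 stood apart in level: its PHLac-high library had the lowest of the 4 PHLac-high values in 33 of the 43 genes, against 41.6% of all listed genes, and its PHLac-low library the lowest PHLac-low value in 25, against 36.7%. Repeat 2 lay the other way. Its PHLac-high library had the highest PHLac-high value in 24 of the 43 genes, against 22.3% of all listed genes. Its PHLac-low library had the highest PHLac-low value in 21, against 25.3%. Of the 4 repeats, repeat 4 had the largest change in 23 of the 43 genes and the smallest in 11. These counts were not set beside all listed genes, so they may belong to the repeat 4 libraries at large. With repeat 4 left out, all 43 genes passed in limma (19 higher, 24 lower), and so did 98.9% of all listed genes.

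Sequence before the transcription start given in the RefSeq promoter table (build GRCh38.p14) was read for the 22 of 43 genes with an entry there. The 2 acid-sensitive potassium channels KCNK3 and KCNK5 are shown because they moved in opposite directions between the fractions. For KCNK3 the stretch is chr2:26692472-26692689 on the plus strand, 218 bases long, left without the bases nearest the start, which the annotation counts as exon. For KCNK5 it is chr6:39229476-39229725 on the minus strand, 250 bases long. Both are given 5′ to 3′.
KCNK3: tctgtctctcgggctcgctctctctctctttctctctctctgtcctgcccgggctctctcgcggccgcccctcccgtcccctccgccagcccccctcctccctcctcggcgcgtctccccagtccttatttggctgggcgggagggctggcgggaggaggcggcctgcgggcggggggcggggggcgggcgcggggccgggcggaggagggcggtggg
KCNK5: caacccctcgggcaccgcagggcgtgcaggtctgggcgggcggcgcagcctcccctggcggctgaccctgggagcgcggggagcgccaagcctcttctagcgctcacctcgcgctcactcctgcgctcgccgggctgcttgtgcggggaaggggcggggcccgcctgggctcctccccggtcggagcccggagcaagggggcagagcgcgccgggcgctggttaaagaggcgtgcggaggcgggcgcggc
The KCNK3 stretch held 76.6% GC with 23 CpG dinucleotides, and the KCNK5 stretch 77.2% GC with 31. Over the 250 bases before the start, the median GC content was 70.0% in the 22 genes, 65.6% in 2730 listed genes and 58.0% in all 35116 promoters of the table.

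The 250 bases were searched for 3 motifs, each of which reads the same on both strands. They were the STAT motif TTCNNNGAA, since the study concerns STAT3 by its title, a heat shock element GAANNTTC, and the cAMP response element TGACGTCA. Each was found in 1 of the 22 genes. All promoters held the STAT motif in 6.57%, the heat shock element in 5.78% and the cAMP response element in 1.65% of cases. Among 2730 listed genes the shares were 5.16%, 4.32% and 3.08%. The 30 bases around each match are printed with the motif in capitals, for KCNT2 at chr1:196608646-196608675 on the minus strand, GPR39 at chr2:132416754-132416783 on the plus strand, and CLCN3 at chr4:169620511-169620540 on the plus strand.
KCNT2: gcgcgtctttTTCGGCGAAgtaacttttta
GPR39: ccaggagtttaGAACGTTCttcctccgccc
CLCN3: cgtcaacgtagTGACGTCAcgcgtcgacgc
KCNT2 was lower and GPR39 and CLCN3 were higher in PHLac-high. Each of these stretches lies before the start in the promoter table but inside the span of its gene in the GENCODE annotation. Bases that the annotation counts as exon were not removed from them. A match describes these letters only.

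PHLac-high had the higher level of 19 of the 43 genes and the lower level of 24, and each kept its direction in all 4 repeats. Among all listed genes 58.7% were called higher, 41.2% were called lower, and 96.1% kept their direction in all 4 repeats. The median log2 change was -0.29 for the 43 genes and 0.25 for all listed genes. Among the channels 18 of 26 were lower, with a median of -0.30, and among the receptors 11 of 17 were higher, with a median of 0.46. The 2 kinds differed in level, with a mean under 100 normalised counts in 5 of the 26 channels and 7 of the 17 receptors. An absolute log2 change of at least 1 was seen in 13 of the 43 genes, against 11.1% of all listed genes. Of these 9 were higher, against 5.92%, and 4 were lower, against 5.21%. Under a mean of 100 normalised counts, a change of at least 1 was seen in 10 of 12 genes, against 247 of 361 listed genes. At or above that mean it was seen in 3 of 31, against 161 of 3305 listed genes. An absolute change of at least 0.5 was seen in 25, against 38.9%, with 13 higher (19.6% of all listed genes) and 12 lower (19.4%). Under a mean of 100 it was seen in all 12 genes and in all 361 listed genes, so there it is no trait of these genes. At or above that mean it was seen in 13 of 31, against 1066 of 3305 listed genes. For 13 genes the 2 fractions had no overlap in their values, against 36.7% of all listed genes, with 7 higher (23.3%) and 6 lower (13.4%). Without repeat 4 this held for 28 of the 43 genes, against 69.0%. Without the repeat block, limma called 13 of the 43 genes, against 31.0% of all listed genes.

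**Figure D1:**
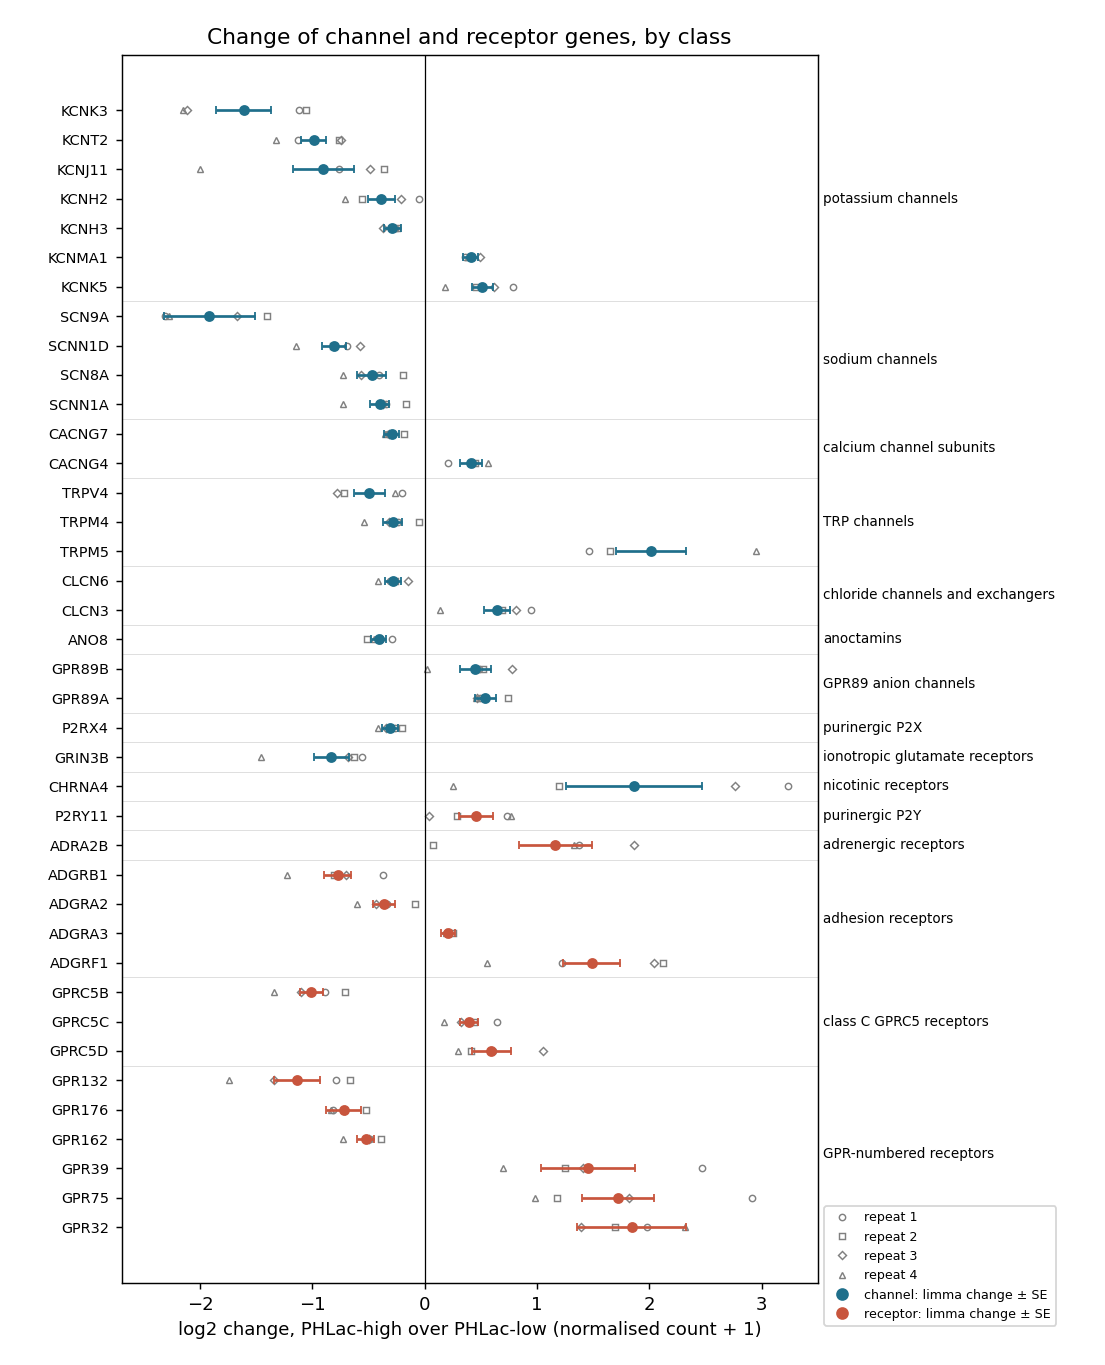
Log2 change of PHLac-high over PHLac-low (horizontal axis, on the normalised count + 1 scale) for 39 of the 43 genes, grouped by class; filled points are limma changes with the repeat block ± SE, and open symbols are the 4 repeats. All 4 sodium channel genes lie left of zero, and 7 of the genes shown reach at least 1 to the right.

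The split of directions moved with base composition. The 24 lower genes had a median transcript GC content of 61.5% and the 19 higher genes 51.8%, and the same order held among all listed genes, with 56.8% for the lower and 46.6% for the higher. With the trend over GC content and transcript length removed from each library, 26 of the 43 genes were higher and 17 lower, against 65.4% of all listed genes higher, and the median became 0.15 against 0.18 for all listed genes. The channels then had 14 higher and 12 lower, with a median of 0.08, and the receptors 12 higher and 5 lower, with a median of 0.83. In that fit 28 of the 43 genes passed, against 74.6% of all listed genes. Of these 20 were higher, against 51.2%, and 8 lower, against 23.4%. Of the 7 genes that changed sign, ADGRA2, ANO8, CACNG7, KCNH2, KCNH3 and TRPM4 were each lower before the correction and had a transcript GC content between 61.9% and 66.8%. Upper-quartile scaling of the libraries moved the median of all listed genes from 0.25 to 0.02 and gave 18 of the 43 genes higher and 25 lower, against 54.1% of all listed genes higher, with ADGRA3 crossing to -0.02. Of the 43 genes 36 then passed, against 64.4%, with 12 higher (23.2% of all listed genes) and 24 lower (41.2%). Those that did not pass were ADGRA3, CACNG4, GPR89B, GPRC5C, GPRC5D, KCNMA1 and P2RY11. The curves and the scaling factors were computed from the listed genes alone, all selected for a difference between the fractions. Such fits can also remove change that belongs to the fractions, and this was not tested.

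**Figure D2:**
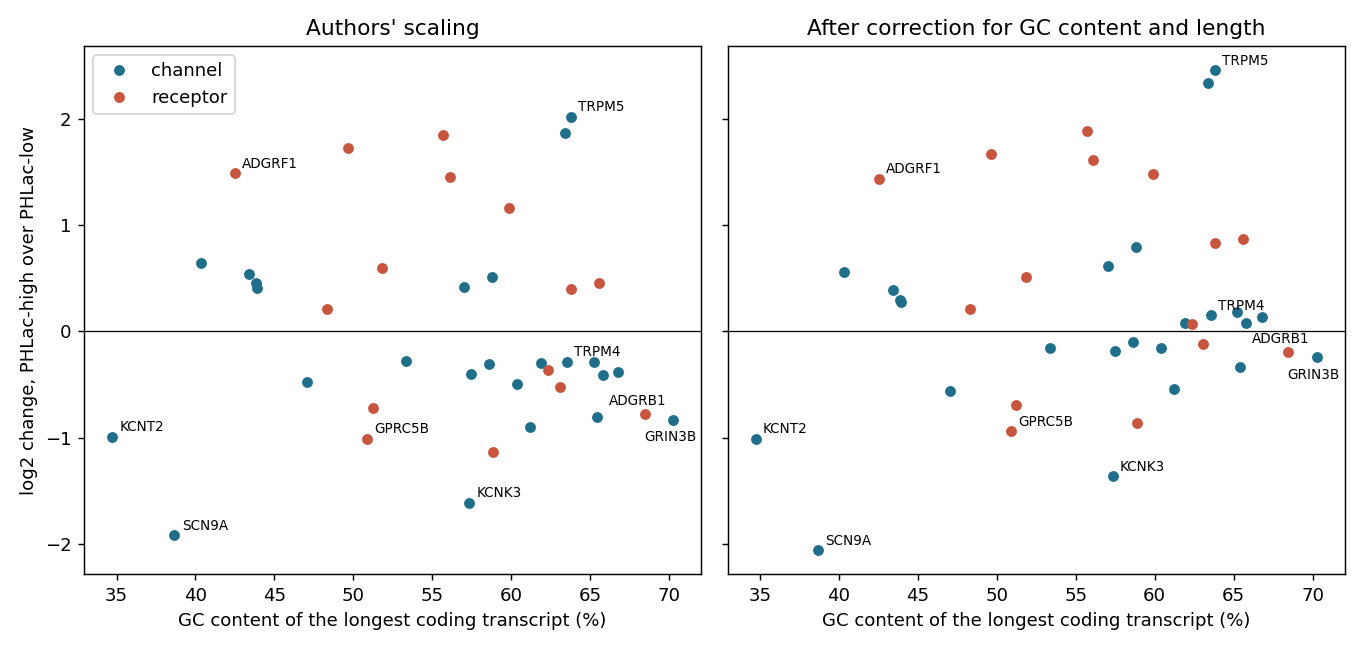
Log2 change of PHLac-high over PHLac-low (vertical axis) against the GC content of the longest coding transcript in percent (horizontal axis) for 39 of the 43 genes, with the authors' scaling on the left and after correction for GC content and length on the right. Most of the small decreases above 60% GC move to zero or above, while KCNK3, KCNT2, SCN9A, GPRC5B, ADGRF1 and TRPM5 keep their side.

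Levels were compared between genes per kilobase of the longest coding transcript, averaged over the 8 libraries. SCNN1A was highest at 1628 normalised counts per kilobase, followed by GPRC5C at 1080, KCNK5 at 1046, CLCN3 at 541, CACNG7 at 533 and GPR162 at 505. SCNN1A encodes the alpha subunit of the epithelial sodium channel, which carries sodium into absorptive epithelia. The per-kilobase level of SCNN1A was 1828 ± 560 in PHLac-low (SD, n = 4), while that of GPRC5C was 926 ± 186 and that of KCNK5 was 865 ± 205, so the last 2 did not differ beyond their spread. CLCN3 at 416 ± 18.9, CACNG7 at 585 ± 153 and GPR162 at 594 ± 97.6 in PHLac-low differed by less than the sum of their spreads except for CLCN3 against GPR162. In PHLac-high the order of the means differed. SCNN1A at 1428 ± 547, GPRC5C at 1233 ± 310 and KCNK5 at 1228 ± 263 lay within their spread. CLCN3 at 665 ± 153 was above GPR162 at 415 ± 83.6 by more than the sum of their spreads. CACNG7 at 482 ± 148 differed from CLCN3 and from GPR162 by less than the sum of the spreads. Over all 8 libraries, the lowest were SCN9A at 1.33 and CHRNA4 at 1.96 per kilobase. The median of the 43 genes was 104 and that of all listed genes 366.

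Direction was also set against level. The higher genes had a median of 186 normalised counts and the lower genes 709, while in all listed genes the higher ones had 2155 and the lower ones 575. A mean under 100 normalised counts was found for 12 of the 43 genes, against 9.85% of all listed genes. Of these 12 genes 8 were higher, and of the 361 listed genes under that level 37.4%. A mean of at least 1000 was found for 14, against 57.6%. Of these 14 genes 5 were higher, and of the 2112 listed genes 74.2%. These are descriptions without a test, and a gene with few reads needs a large change to be listed at all.

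**Figure D3:**
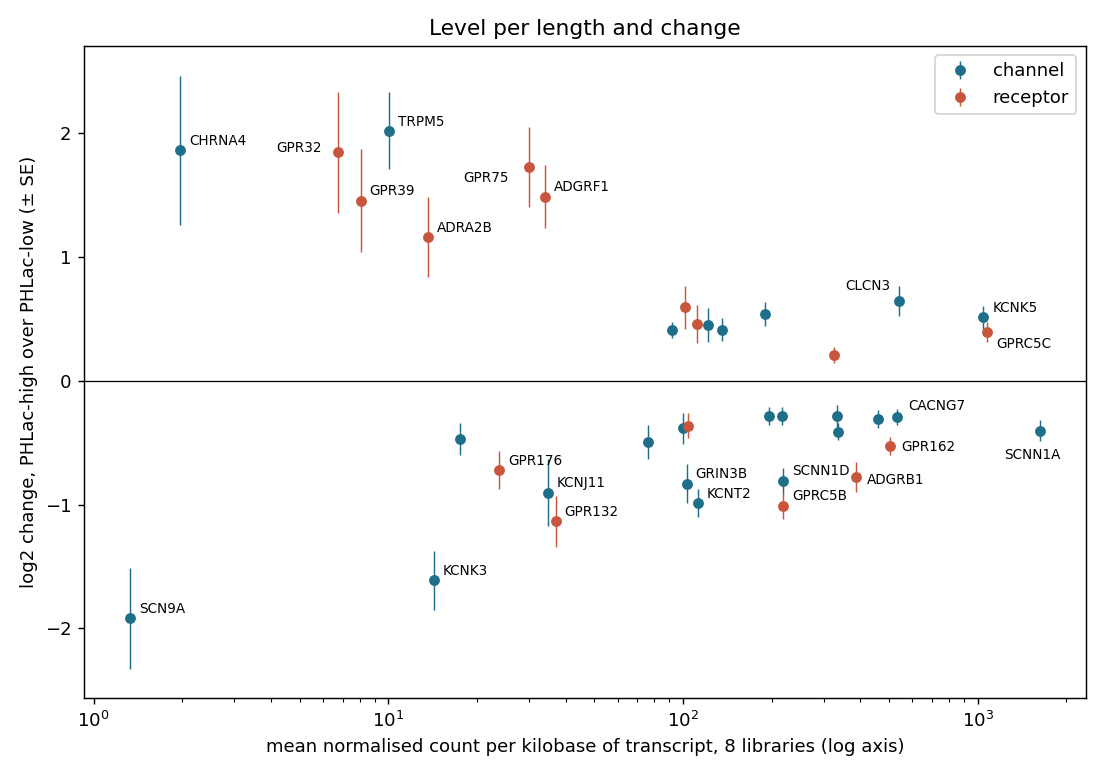
Log2 change of PHLac-high over PHLac-low (vertical axis, ± SE) against the mean normalised count per kilobase over the 8 libraries (horizontal log axis), for 39 of the channels and receptors. The 7 genes shown with an increase of at least 1 all lie at or under 34.1 per kilobase, and the 6 most abundant genes lie between -0.53 and 0.64.

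Potassium channels made up the largest class, with 2 of 9 genes higher and 7 lower in PHLac-high and a median log2 change of -0.39. KCNK3 (Entrez 3777) encodes TASK1, a background potassium channel that extracellular acid closes. Over repeats 1 to 4 its normalised counts were 97.8, 134, 169 and 127 in PHLac-low and 44.4, 63.8, 38.2 and 27.8 in PHLac-high. Every PHLac-high value lay below every PHLac-low value. The limma log2 change of KCNK3 was -1.61 ± 0.24 (SE, adjusted p = 0.000657), and it was -1.36 after correction for GC content and length. KCNK5 (Entrez 8645) encodes TASK2, a background channel of the same family that opens in alkaline and closes in acid medium and is known from bicarbonate-transporting epithelia. Its counts were 2477, 4309, 3039 and 3163 in PHLac-low and 4279, 5929, 4669 and 3577 in PHLac-high. The groups overlapped, but each repeat was higher in PHLac-high, by 0.79, 0.46, 0.62 and 0.18. By limma its log2 change was 0.51 ± 0.09 (SE, adjusted p = 0.00157), and without the block it did not pass (adjusted p = 0.0641). After correction for GC content and length the change of KCNK5 was 0.79. Per kilobase, KCNK5 held 1228 ± 263 and KCNK3 7.07 ± 2.46 in PHLac-high (SD, n = 4).

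KCNT2 (Entrez 343450) encodes a potassium channel opened by intracellular sodium, and its counts fell from 1091, 798, 955 and 647 in PHLac-low to 498, 469, 570 and 258. All 4 PHLac-high values lay below the lowest PHLac-low value. The paired log2 change (limma) was -0.99 ± 0.11 (SE, adjusted p = 0.000208) and stayed at -1.01 after correction for GC content and length. KCNJ11 (Entrez 3767) encodes the pore of the ATP-sensitive potassium channel, which closes when cellular ATP is high. It held 90.0, 196, 117 and 71.9 in PHLac-low and 52.6, 152, 83.5 and 17.2 in PHLac-high, so the groups overlapped widely. Its changes were -0.76, -0.36, -0.49 and -2.001 in repeats 1 to 4, with repeat 4 far below the others. The limma change was -0.90 ± 0.27 (SE, adjusted p = 0.0109) and -0.54 without repeat 4, and it did not pass without the block (adjusted p = 0.19) or after correction for GC content and length (adjusted p = 0.0937).

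KCNH2, the hERG channel of cardiac repolarisation, and its relative KCNH3 had smaller log2 changes of -0.39 and -0.29. KCNH2 did not pass without repeat 2 (limma adjusted p = 0.0758). After correction for GC content and length, KCNH3 had 0.19, past the threshold in the opposite direction (limma adjusted p = 0.0451), and KCNH2 had 0.13. On that scale 5 of the 9 potassium channel genes were higher and 4 lower. KCNMA1, the large-conductance channel opened by calcium and voltage, was higher by 0.41 ± 0.07 (SE), with means of 952 ± 152 and 1263 ± 180 normalised counts (SD, n = 4). Its change was within 0.36 to 0.49 in all 4 repeats.

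All 4 sodium channel genes were lower in PHLac-high, with a median log2 change of -0.64, and all 4 stayed lower after correction for GC content and length. SCNN1A (Entrez 6337) held 5837, 6847, 8719 and 4055 normalised counts in PHLac-low and 4599, 6098, 6740 and 2453 in PHLac-high. The repeats differed from each other more than the fractions did, and the change within repeats was -0.34, -0.17, -0.37 and -0.72. Its limma change was -0.40 ± 0.09 (SE, adjusted p = 0.00298), and it did not pass without the block (adjusted p = 0.266) or after correction for GC content and length (adjusted p = 0.0843). SCNN1D (Entrez 6339), the delta subunit that can replace alpha in the epithelial channel, held 984, 1236, 995 and 603 in PHLac-low and 609, 700, 668 and 271 in PHLac-high. Only the PHLac-low library of repeat 4 reached into the PHLac-high range. The log2 change of SCNN1D was -0.81 ± 0.10 (SE), and -0.34 after correction for GC content and length.

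Of the voltage-gated sodium channels, SCN8A was lower by a log2 change of -0.47 ± 0.13 (SE), from 234 ± 16.1 to 170 ± 35.4 normalised counts (SD, n = 4). SCN9A, the channel of pain-sensing neurons, was near the lower limit of the data. It had 25, 21, 52 and 10 reads in PHLac-low and 3, 9, 6 and 1 in PHLac-high, and its log2 change was -1.92 ± 0.41 (SE). Of 9 neural or neuroendocrine markers, 4 were listed (SYT1, CHGB, SNAP25 and ENO2), and each was lower in PHLac-high. Their summed level was 2814 to 3921 normalised counts in PHLac-low and 2354 to 2982 in PHLac-high, and their part in the changes of neuronal channels was not tested.

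**Figure D4:**
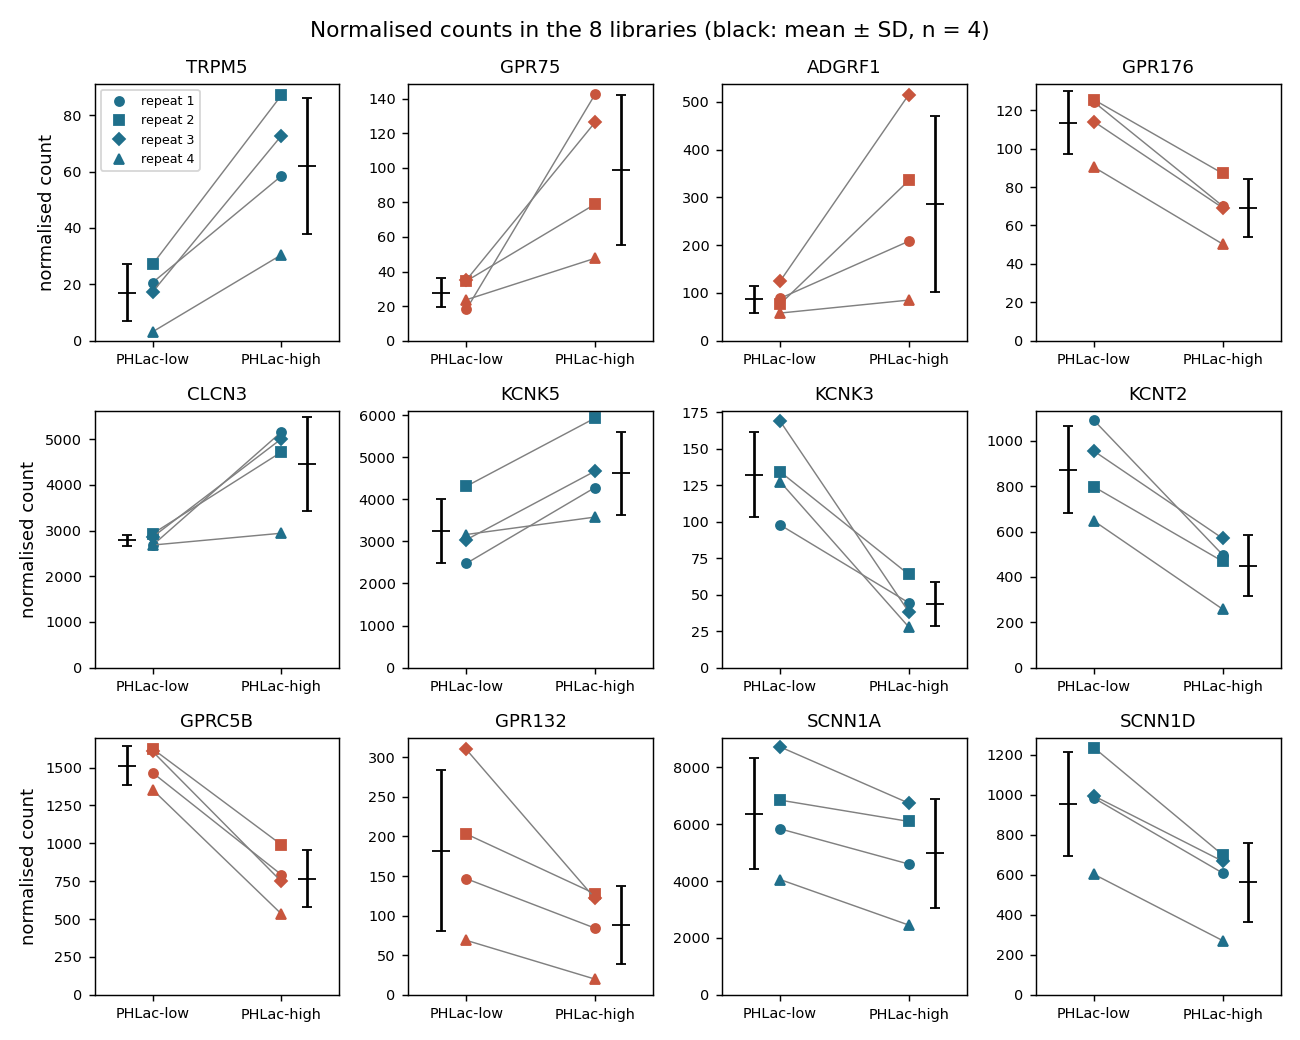
Normalised counts (vertical axis, linear from zero) of 12 genes in the 8 libraries; lines join the fractions of a repeat and black bars are the mean ± SD (n = 4). In TRPM5, GPR75 and CLCN3 every PHLac-high value lies above every PHLac-low value, and in KCNK3, KCNT2, GPR176 and GPRC5B every one lies below.

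The calcium channel members were the auxiliary gamma subunits CACNG4 and CACNG7, which also regulate AMPA-type glutamate receptors. CACNG7 held 1779, 1999, 1460 and 1051 normalised counts in PHLac-low and 1421, 1764, 1170 and 824 in PHLac-high, with a wider gap between repeats than between fractions. CACNG4 was higher by a log2 change of 0.41 ± 0.09 and CACNG7 lower by -0.29 ± 0.07 (SE). The CACNG7 value became 0.08 after correction for GC content and length and that of CACNG4 0.61. GRIN3B, a glycine-binding NMDA receptor subunit, held 376, 447, 553 and 321 normalised counts in PHLac-low and 256, 288, 344 and 117 in PHLac-high. For GRIN3B the limma log2 change was -0.83 ± 0.16 (SE, adjusted p = 0.00179) and -0.24 after correction for GC content and length, where it no longer passed (adjusted p = 0.14). GRIN3B had the highest transcript GC content of the 43 genes, 70.3%.

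The TRP class held TRPM4 and TRPM5, both of which conduct monovalent cations when intracellular calcium rises, and TRPV4, a calcium-permeable channel opened by osmotic swelling and warmth. TRPM5 (Entrez 29850) held 20.6, 27.1, 17.3 and 3.08 normalised counts in PHLac-low and 58.5, 87.1, 72.8 and 30.5 in PHLac-high, with no overlap. In reads these were 24, 22, 36 and 3 against 50, 86, 61 and 23. By limma its log2 change was 2.02 ± 0.31 (SE, adjusted p = 0.000737). TRPM4 held 1739, 1700, 1383 and 1110 in PHLac-low and 1473, 1645, 1109 and 764 in PHLac-high, and the groups overlapped. TRPM4 was far more abundant than TRPM5, at 332 against 10.1 normalised counts per kilobase, and its log2 change of -0.29 ± 0.09 (SE) became 0.15 after correction for GC content and length. TRPV4 had -0.49 ± 0.14 (SE), and -0.16 after that correction.

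CLCN3 (Entrez 1182) and CLCN6 (Entrez 1185) encode chloride and proton exchangers of endosomes and late endosomes. CLCN3 held 2676, 2928, 2856 and 2682 normalised counts in PHLac-low and 5153, 4714, 5003 and 2941 in PHLac-high. The lowest PHLac-high value lay just above the highest PHLac-low value. Repeats 1 to 3 changed by 0.95, 0.69 and 0.81, and repeat 4 by 0.13. The limma change was 0.64 ± 0.12 (SE, adjusted p = 0.00164). CLCN6 changed by -0.28 ± 0.07 (SE), from 1211 ± 384 to 1002 ± 342 (SD, n = 4), with wide overlap, and did not pass after correction for GC content and length (-0.16, limma adjusted p = 0.086). GPR89A and GPR89B, the near-identical Golgi anion channel genes between which the division of reads is uncertain, were higher by 0.54 ± 0.10 and 0.45 ± 0.14 (SE). GPR89A held 315, 295, 358 and 349 normalised counts in PHLac-low and 443, 495, 494 and 481 in PHLac-high, with tight groups that did not overlap. GPR89B held 202, 180, 174 and 238 against 283, 258, 298 and 242, and its repeat 4 differed by only 0.02. GPR89B did not pass after upper-quartile scaling, without repeat 3 or after correction for GC content and length (limma adjusted p = 0.216, 0.0645 and 0.0739). ANO8, an anoctamin that tethers the endoplasmic reticulum to the plasma membrane, held 1474, 2065, 1668 and 1167 in PHLac-low and 1203, 1448, 1275 and 854 in PHLac-high. The groups overlapped, and ANO8 had -0.41 ± 0.07 (SE), and 0.08 after correction for GC content and length.

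CHRNA4, a nicotinic acetylcholine receptor subunit, was barely detected. It had 2, 6, 7 and 2 reads in PHLac-low and 21, 18, 24 and 2 in PHLac-high, so the rise was carried by repeats 1 to 3. The paired log2 change (limma) was 1.86 ± 0.60 (SE, adjusted p = 0.0145), and without repeat 1 or without repeat 3 it did not pass (adjusted p = 0.0751 and 0.0739).

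The nucleotide receptors had changes of opposite sign. P2RX4, a calcium-permeable channel opened by extracellular ATP, held 1054, 1051, 1138 and 875 normalised counts in PHLac-low and 879, 912, 893 and 657 in PHLac-high, a log2 change of -0.31 ± 0.07 (SE). After correction for GC content and length P2RX4 had -0.10 and did not pass (limma adjusted p = 0.241). P2RY11, a G protein coupled receptor for ATP, had a limma log2 change of 0.46 ± 0.15 (SE, adjusted p = 0.0163), from 187 ± 64.6 to 247 ± 33.8 (SD, n = 4). P2RY11 shares its strand and locus with PPAN and the readthrough gene PPAN-P2RY11, so its reads cannot be assigned with certainty. P2RY11 did not pass after upper-quartile scaling or without repeat 1 (limma adjusted p = 0.191 and 0.0718). After correction for GC content and length P2RY11 had 0.87 and passed (limma adjusted p = 0.00111).

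ADRA2B (Entrez 151), an alpha-2 adrenergic receptor that lowers cyclic AMP, held 30.9, 56.6, 26.9 and 3.08 in PHLac-low and 81.8, 59.8, 100 and 9.27 in PHLac-high. Both of its repeat 4 libraries were far below the others, and repeat 2 changed by only 0.08. For ADRA2B the limma log2 change was 1.16 ± 0.32 (SE, adjusted p = 0.00822).

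Adhesion receptors, which carry large extracellular domains that bind matrix or neighbouring cells, divided evenly, with 2 of 4 higher. ADGRF1 (Entrez 266977) held 88.3, 76.3, 124 and 57.5 in PHLac-low and 208, 335, 515 and 84.7 in PHLac-high. The PHLac-high library of repeat 4 fell inside the PHLac-low range. By limma its log2 change was 1.49 ± 0.25 (SE, adjusted p = 0.00119). ADGRB1 (Entrez 575), known as brain angiogenesis inhibitor and as a receptor for phosphatidylserine on apoptotic cells, held 2456, 4070, 3244 and 2298 in PHLac-low and 1895, 2329, 1993 and 984 in PHLac-high. The paired log2 change (limma) was -0.78 ± 0.12 (SE), and -0.19 after correction for GC content and length, where it no longer passed (limma adjusted p = 0.111). ADGRA2, a coreceptor for WNT7 in brain vessels, had -0.36 ± 0.10 and ADGRA3 0.21 ± 0.06 (SE). ADGRA3 had the highest deposited adjusted p-value of the 43 genes, 0.0487 in the authors' deposited table.

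The GPRC5 genes encode orphan class C receptors of the family first described as induced by retinoic acid, and they had changes of both signs. GPRC5B (Entrez 51704) held 1466, 1625, 1607 and 1355 in PHLac-low and 794, 992, 749 and 535 in PHLac-high, without overlap. Its limma log2 change of -1.01 ± 0.10 (SE, adjusted p = 0.000148) was the decrease with the smallest adjusted p of the 43 genes, and it was -0.94 after correction for GC content and length. GPRC5C (Entrez 55890) held 2528, 3358, 3073 and 2112 in PHLac-low and 3957, 4555, 3853 and 2374 in PHLac-high. For GPRC5C the limma log2 change was 0.40 ± 0.08 (SE), with 0.65, 0.44, 0.33 and 0.17 in repeats 1 to 4. GPRC5D, a surface marker of plasma cells, held 97.8, 71.4, 70.02 and 94.5 against 150, 95.2, 147 and 117. GPRC5D had 0.59 ± 0.17 (SE), from 83.4 ± 14.8 to 127 ± 26.0 (SD, n = 4), and did not pass without repeat 3 (limma adjusted p = 0.0525).

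Of the 7 numbered GPR receptors, 4 were higher and 3 lower. Each had an absolute log2 change above 0.5, against 38.9% of all listed genes at 0.5 or more. But 5 of the 7 had a mean under 100 normalised counts, where all 361 listed genes had a change of at least 0.5. GPR75 held 18.0, 34.5, 35.01 and 23.6 normalised counts in PHLac-low and 143, 79.0, 126 and 47.7 in PHLac-high. Every PHLac-high value was above every PHLac-low value, although the change was smallest in repeat 4. The limma log2 change of GPR75 was 1.72 ± 0.32 (SE, adjusted p = 0.00174). GPR75 overlaps the readthrough gene GPR75-ASB3 on its own strand, so part of its reads may belong there.

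GPR32, a receptor for resolvin lipids, had 5, 3, 12 and 0 reads in PHLac-low and 17, 14, 14 and 3 in PHLac-high, and was the only one of the 43 genes with a library at 0. By limma its log2 change was 1.84 ± 0.49 (SE, adjusted p = 0.00667). GPR39, a zinc-sensing receptor, held 1.72, 3.69, 4.32 and 50.3 normalised counts in PHLac-low and 14.03, 10.1, 13.1 and 82.1 in PHLac-high. Both libraries of repeat 4 were far above the other 6, and this gap between repeats exceeded the gap between fractions. The change of GPR39 within repeats was 2.47, 1.25, 1.41 and 0.69. GPR176 and GPR162 were lower, by log2 changes of -0.72 ± 0.16 and -0.53 ± 0.07 (SE), without overlap. For GPR176 the counts were 124, 126, 114 and 90.4 in PHLac-low and 70.2, 87.1, 69.2 and 50.3 in PHLac-high. For GPR162 they were 2022, 1447, 1660 and 1451 against 1439, 1103, 1174 and 878, and the highest PHLac-high value lay just below the lowest PHLac-low value. GPR162 became -0.12 after correction for GC content and length and no longer passed (limma adjusted p = 0.184). It overlaps P3H3 on the same strand, so its level and change may include reads of that gene.

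Of the acid-sensing genes sought by name 4 were listed (KCNK3, GPR132, ASIC1 and ASIC3), and all 4 were lower, while KCNK5, which acid also closes, was higher. GPR132 (Entrez 29933), a lipid receptor grouped with the proton-sensing receptors, held 147, 203, 310 and 68.8 normalised counts in PHLac-low and 84.2, 128, 122 and 19.9 in PHLac-high. The groups overlapped, and the change within repeats was -0.79, -0.67, -1.34 and -1.74. Its limma change was -1.14 ± 0.20 (SE, adjusted p = 0.00147), and it did not pass without the block (adjusted p = 0.139). The acid-sensing sodium channels ASIC1 and ASIC3, which the prefixes do not take in, were also lower, by -0.33 ± 0.10 and -0.59 ± 0.13 (SE). Neither passed after correction for GC content and length (limma adjusted p = 0.579 and 0.163). GPR4, GPR65 and the lactate receptor HCAR1 were not analysed here.

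The genes that act downstream of these receptors were described from lists of symbols. Of 5 G protein subunits 2 were higher and 3 lower. Of 7 regulators of G protein signalling, which switch off G proteins, 6 were higher and 1 lower. RGS4 rose from 31030 ± 8281 to 44638 ± 9919 normalised counts (SD, n = 4), a log2 change of 0.53 ± 0.05 (SE). RGS2, an inhibitor of Gq signalling, had 0.82 ± 0.09, and RGS5 0.31. Of 18 genes matched by symbol as second messenger enzymes and anchoring proteins, 11 were higher and 7 lower. One of the higher symbols, PRKCDBP, was taken in by its prefix and names a kinase-binding protein, not an enzyme. PDE7A and PDE4A, which degrade cyclic AMP, had 0.62 and 0.55, and PDE4B had -1.18 at 33.1 normalised counts in PHLac-low.

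Of 12 intracellular calcium genes 8 were higher and 4 lower. NFATC2, a transcription factor that calcineurin activates, held 157, 114, 117 and 204 in PHLac-low and 994, 750, 577 and 688 in PHLac-high, without overlap, and its log2 change was 2.35 ± 0.16 (SE). RYR2, a calcium release channel, had -0.92 ± 0.09 and ORAI3, a store-operated calcium channel, -0.80 ± 0.08 (SE). Among 20 other genes matched by channel-related symbols 8 were higher and 12 lower, with a median of -0.27. After correction for GC content and length 10 were higher and 10 lower, with a median of 0.06. The list takes in KCTD5, KCTD9 and KCTD20, which were higher, and KCTD18, which was lower, and KCTD genes do not encode channels.

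Other G protein coupled receptors numbered 27 symbols, 9 higher and 18 lower, with a median log2 change of -0.35; one of the lower symbols, CRHR1-IT1, is an intronic transcript and not a receptor. After correction for GC content and length 11 were higher and 15 lower of the 26 that could be corrected, with a median of -0.03. SUCNR1, the receptor for succinate, held 250, 447, 276 and 97.6 in PHLac-low and 67.8, 84.1, 64.4 and 22.5 in PHLac-high, without overlap, a log2 change of -2.10 ± 0.15 (SE). The adenosine receptor ADORA2B, which raises cyclic AMP, had 1.04 ± 0.12, with 909, 938, 909 and 1212 in PHLac-low and 2576, 1946, 1712 and 1946 in PHLac-high. HRH1, the histamine H1 receptor, had 1.38 ± 0.13 (SE). PTGER4, a prostaglandin E2 receptor, had 0.96 ± 0.21 (SE), from 30.4 ± 7.10 in PHLac-low to 59.5 ± 9.18 in PHLac-high (SD, n = 4). The receptors named from this list were picked after their values were seen, and most of its symbols were lower. Of all 89 genes in these lists, 44 were higher and 45 lower, with a median of -0.20, against 58.8% of all listed genes higher. After correction for GC content and length the median turned to 0.20, with 49 higher and 38 lower of the 87 that could be corrected, against 65.4% of all listed genes higher.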

How the data were processed

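RNA from 8 sorted samples was sequenced by the authors as paired-end libraries of the mRNA fraction, with dUTP in the second strand, per the labels' protocols. STAR, SAMtools, Subread and DESeq2 and build hg38 are named in the submitters' processing notes, without versions; whether counting used strand is not given in the sources used here. The deposited signal per library is reads divided by 1 size factor (0.755 to 2.09); multiplied back, every library gave whole reads to within 0.01. The authors deposited log2 fold changes and adjusted p-values of 3666 genes, none above 0.05. Genes were tested here with limma 3.58.1 (R 4.3.3), mean-variance trend, on log2(normalised count + 1), which understates changes of low genes, with the repeat as a block because the series description pairs the samples. Same-numbered libraries deviated together (correlation across genes 0.53 to 0.76). Reads were also tested with edgeR 4.0.16 and DESeq2 1.42.0. The fits were tested on simulated data. Transcript length, GC content and coordinates came from GENCODE release 29 (GRCh38, 3510 of 3666 genes, all 43 members). The correction subtracted a lowess curve (span 0.3) per library, fitted over the listed genes. Alternatives were fits without the block or without a repeat, another pseudocount (0.1), a minimum mean of 100, and other scalings computed from the listed genes. The rule for named genes took the 10 largest increases and decreases with a mean of at least 50, the most abundant of each class and acid-sensing genes, 27 of which are reported; others are given within their class. TRPM5, GPR39, GPR32, SCN9A, ADRA2B, SCN8A, KCNMA1 and genes of the downstream lists were detailed after their values were seen. Some genes are counted in totals but not reported by name here. The members and lists were chosen with earlier results of these data known. In 17 of 22 promoter windows the bases after the start were found in a transcript of the same gene.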

Additional observations from a re-analysis of the deposited data

Results flagged for a closer look

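In each group of 4 libraries of 27 named genes (54 groups), the distance from the most extreme value to its neighbour was divided by the range of the group. Chance picks out about 2.7 such groups, and 2 were picked out. In PHLac-high, repeat 4 gave the extreme value of P2RX4 (657 normalised counts, a gap of 0.873 of the range). In PHLac-low, repeat 2 gave that of ASIC3 (542, a gap of 0.831).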

How the results depend on the processing

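With limma and the replicate block all 43 genes passed; without the block 13 did, and edgeR without the block called 14, while edgeR and DESeq2 with the block called 43, as they did all 3666 listed genes. Of the listed genes 3663 passed with the block, 1135 without it, 1194 in edgeR without it and 2360 after scaling to the upper quartile; of the 89 genes of the downstream lists, 29 passed without the block. With GC content and length corrected, 28 of the 43 genes passed, 60.5% of the 43 were higher in place of 44.2%, and the median log2 change turned from -0.29 to 0.15. In that fit 7 genes changed sign, among them ANO8 (0.0819), CACNG7 (0.0827), TRPM4 (0.15) and KCNH3 (0.19), the last past the threshold (limma adjusted p = 0.0451). The share of higher genes was 41.9% after upper-quartile scaling and 35.5% over the genes that averaged 100 normalised counts or more, of which 13 had an absolute change of at least 0.5, against 25 of all 43. The median was -0.51 after upper-quartile scaling and -0.40 after scaling by the median of ratios. Leaving out 1 repeat gave 16 to 28 genes whose fractions had no overlap, the highest without repeat 4 (43.6% to 69.0% of all listed genes), and 40 to 43 genes past the threshold (94.6% to 98.9%). The cause of these differences was not tested, except that the minimum mean and the left-out repeats test fewer genes or samples. Of 346 values of 27 named genes over 13 alternatives, 291 kept their direction and side of the threshold, 52 kept their direction only and 3 changed sign. Depth limits the lowest genes: 6 of the 43 had a library under 10 reads, and intervals were not computed for them.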
